A study of Saccharomyces cerevisiae with 12 samples.

Results

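The ATG genes encode the autophagy machinery of budding yeast, and they were chosen by name as all genes called ATG followed only by a number. This gave 34 of the 6412 genes listed in each sample. Polyadenylated RNA was sequenced in 12 samples of Saccharomyces cerevisiae, built in the W303 background, 4 replicates in each of 3 groups. CDK/DDK bypass G1 cells (strain YKR1503) carried Dpb11, the phosphorylation-mimicking sld2-T84D and Dbf4 behind a galactose-inducible promoter, which lets replication start without the S-phase kinases CDK and DDK. Wild-type S cells (strain E3087) had been held with α-factor, a mating pheromone that stops the cycle in G1, for 2.5 h and were then let go for 30 min. Wild-type G1 cells (strain YKR1500) and bypass cells had the same 2.5 h arrest and then stayed in it for 3 h with 2% galactose. All cultures were grown in rich medium with 2% raffinose at 30 °C, and none was described as starved. Since every group is a strain of its own, an effect of strain and an effect of condition cannot be told apart. The replicates carry only a number in the labels, and p-values measure the spread between these samples, which may be technical.

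Autophagy carries cytoplasm to the vacuole, the yeast lysosome, in double-membrane autophagosomes. The Atg1 kinase complex starts the process when the nutrient kinase TORC1 is off, a phosphatidylinositol 3-kinase complex marks the membrane, Atg9 vesicles and the lipid-transfer protein Atg2 supply and extend it, and ubiquitin-like conjugation couples Atg8 to it. Receptors tie chosen cargo to Atg8 and the scaffold Atg11, and some of the same proteins run the Cvt pathway, which delivers vacuolar enzymes in growing cells. Transcription of many ATG genes is known to respond to nitrogen starvation, and Ume6 is a known repressor of ATG8.

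The samples held 8162140 to 10545835 counts on genes, and an ATG gene had 22 to 2622 counts in a sample. All 34 ATG genes passed the filter on low counts, which kept 5662 genes. The bypass genes DPB11, SLD2 and DBF4 summed to 6067 to 6915 CPM, which are counts scaled to the effective library size in units of 1e6, in bypass G1 cells, 222 to 251 CPM in wild-type S cells and 177 to 185 CPM in wild-type G1 cells. The pheromone-induced genes FUS1, FIG1, AGA1 and PRM1 summed to 14615 to 15238 CPM in bypass G1, 146 to 237 CPM in wild-type S and 14480 to 15003 CPM in wild-type G1. The 7 S-phase genes summed to 1286 to 1353 CPM in bypass G1, 7643 to 8045 CPM in wild-type S and 621 to 635 CPM in wild-type G1. They were the histone genes HTA1, HTA2, HTB1 and HTB2, with RNR1, CLB5 and CLN2. HTA1 (632 to 683 CPM) and HTB1 (449 to 474 CPM) made up most of the bypass G1 sum. CLN2 alone was lower in bypass G1, at 38.9 to 46.1 CPM, than in wild-type G1, at 49.6 to 55.6 CPM. The 4 galactose genes were high everywhere, at 26104 to 26992 CPM in bypass G1, 28241 to 31051 CPM in wild-type S and 22190 to 25302 CPM in wild-type G1, although the treatment label of the S cells names no galactose. The MATa genes STE2, MFA1 and MFA2, which mark the mating type that α-factor acts on, were low in the S cells, while BAR1, a MATa gene for the protease that degrades α-factor, was higher there. Together the 4 summed to 6078 to 6339 CPM in bypass G1, 156 to 238 CPM in wild-type S and 5617 to 6454 CPM in wild-type G1, and the 3 genes of the other mating type to 54.9 to 58.9, 32.8 to 35.0 and 37.5 to 48.9 CPM in the same groups. The 3 meiosis genes reached 104 to 112 CPM in bypass G1, 11.3 to 16.7 CPM in wild-type S and 127 to 165 CPM in wild-type G1. BAR1 alone was at 0.101 to 0.858 CPM in bypass G1, 21.2 to 35.6 CPM in wild-type S and 0.567 to 0.894 CPM in wild-type G1. The study's methods name cells with and without BAR1, and whether the strains here differ in this gene was not tested.

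The DNA in front of 5 members is shown because 4 of them had the largest differences between S and G1 and ATG13 was the only member that was not called there. Each line holds the 250 bases before the start codon and the first 50 bases of the gene, read 5′ to 3′ on the gene's strand from the RefSeq genome of assembly R64, which is sacCer3. Capitals mark matches to the 7 short motifs named in the next paragraph, on either strand.
ATG8 (chr2:80682-80981, minus strand): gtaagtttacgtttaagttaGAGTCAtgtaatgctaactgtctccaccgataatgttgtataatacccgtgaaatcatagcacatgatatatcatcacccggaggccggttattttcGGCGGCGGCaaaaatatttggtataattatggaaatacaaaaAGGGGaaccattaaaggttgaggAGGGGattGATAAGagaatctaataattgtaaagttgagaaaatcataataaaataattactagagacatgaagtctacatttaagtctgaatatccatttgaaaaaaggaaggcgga
ATG34 (chr15:165464-165763, plus strand): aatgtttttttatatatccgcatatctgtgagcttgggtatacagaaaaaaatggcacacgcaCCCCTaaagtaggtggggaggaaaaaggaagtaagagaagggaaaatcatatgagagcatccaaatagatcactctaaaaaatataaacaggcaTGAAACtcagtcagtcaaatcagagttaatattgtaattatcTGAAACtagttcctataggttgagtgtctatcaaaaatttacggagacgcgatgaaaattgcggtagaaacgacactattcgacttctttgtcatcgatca
ATG40 (chr15:618239-618538, minus strand): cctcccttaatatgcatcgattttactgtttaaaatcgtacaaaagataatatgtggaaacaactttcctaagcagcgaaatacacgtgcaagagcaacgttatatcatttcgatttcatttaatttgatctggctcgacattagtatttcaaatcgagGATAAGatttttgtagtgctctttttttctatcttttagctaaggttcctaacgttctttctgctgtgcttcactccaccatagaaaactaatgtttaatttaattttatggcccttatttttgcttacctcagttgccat
ATG29 (chr16:237088-237387, plus strand): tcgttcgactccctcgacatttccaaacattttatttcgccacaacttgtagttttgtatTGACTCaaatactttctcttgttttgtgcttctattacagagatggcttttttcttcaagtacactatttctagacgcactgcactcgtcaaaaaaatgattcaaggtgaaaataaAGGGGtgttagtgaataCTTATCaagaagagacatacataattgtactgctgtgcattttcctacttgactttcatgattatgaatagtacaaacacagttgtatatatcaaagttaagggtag
ATG13 (chr16:906968-907267, plus strand): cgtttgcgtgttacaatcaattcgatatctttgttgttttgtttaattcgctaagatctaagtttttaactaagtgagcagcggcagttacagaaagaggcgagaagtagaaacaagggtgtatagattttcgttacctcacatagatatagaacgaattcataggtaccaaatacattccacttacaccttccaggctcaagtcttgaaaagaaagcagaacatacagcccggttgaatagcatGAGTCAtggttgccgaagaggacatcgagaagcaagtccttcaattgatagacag

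The motifs searched on both strands were TGACTC of Gcn4, the activator of amino acid starvation, GATAAG of the nitrogen-regulated Gln3 and Gat1, GCCGCC of Ume6, AGGGG of the stress factors Msn2 and Msn4, TGAAAC of the pheromone factor Ste12, ACGCGT of MBF and CGCGAAA of SBF, the last 2 being G1/S factors. ATG8 held matches to 4 of them, with the Ume6 letters at 133 and 130 bases before the start codon in a pair that overlaps. ATG29 held the Gcn4 letters, the Gln3 and Gat1 letters and the Msn2 and Msn4 letters. ATG34 held the Msn2 and Msn4 letters and 2 copies of the Ste12 letters, and ATG40 the Gln3 and Gat1 letters alone. The match in ATG13 was that of Gcn4, starting 5 bases before the start codon and running into it. GATAAG was found in 10 of the 34 ATG promoters (29.4%) and in 14.7% of 6001 promoters cut the same way. TGACTC was found in 6 (17.6%) and in 7.98% of all, and GCCGCC in 2 (5.88%) and in 5.13%. AGGGG stood in 7 (20.6%) and in 21.6% of all, TGAAAC in 5 (14.7%) and in 19.9%, ACGCGT in 1 (2.94%) and in 3.07%, and CGCGAAA in 0 and in 3.60%. These matches are letters in a window and were not tested as binding sites. Among them, the TGACTC of ATG10 and the TGAAAC of ATG12 lay within the genes, past the start codon. No motif overlaps another in these promoters except the Ume6 pair of ATG8.

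The members lie on 13 chromosomes. ATG8 (YBL078C) is at chr2:80378-80731 on the minus strand, ATG1 (YGL180W) at chr7:160065-162758 on the plus strand and ATG13 (YPR185W) at chr16:907218-909434 on the plus strand. ATG29 (YPL166W) is at chr16:237338-237979 on the plus strand, ATG34 (YOL083W) at chr15:165714-166952 on the plus strand, ATG40 (YOR152C) at chr15:617518-618288 on the minus strand and ATG41 (YPL250C) at chr16:74309-74719 on the minus strand. Their median length was 1243.5 bases, against 1200 bases for all genes, and 33 of them have a single exon in the annotation, ATG38 being the exception. In 17 of the 34 (50%) the nearest upstream neighbour, at whatever distance, is read in the opposite direction, compared with 52.0% of protein-coding genes. ATG34 and ATG19, which encode related receptors, lie 1774 bases apart on chromosome 15. Every 42-base window, the read length, of every member was found at 1 place in the genome, so no member shares such a window with another gene. The gene upstream of ATG8, the isoleucyl-tRNA synthetase ILS1, had a log2 fold change of 0.14 in S over G1 cells, while ATG8 itself fell by 2.91. The pump gene PDR5, which is read away from ATG40 at a distance of 1551 bases, fell by 1.25 there.

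Levels are compared between genes as TPM, which divides counts by gene length and sets the sum of each sample to the same total. The 34 ATG genes together made up 1969 ± 28.5 TPM in bypass G1 cells, 819 ± 33.9 TPM in wild-type S cells and 2113 ± 201 TPM in wild-type G1 cells (SD, n = 4 each). ATG8, the ubiquitin-like protein that coats the autophagosome, was the highest in both G1 groups, at 280 ± 5.88 TPM in bypass G1 and 319 ± 22.8 TPM in wild-type G1, and stood at 37.8 ± 3.79 TPM in wild-type S. In S cells the highest was instead ATG27, a membrane protein that helps to move Atg9, at 130 ± 7.71 TPM. ATG19, the receptor of the Cvt pathway, reached 202 ± 3.25 TPM in bypass G1, 51.7 ± 3.32 TPM in wild-type S and 195 ± 22.4 TPM in wild-type G1. ATG33, a mitochondrial protein used in mitophagy, had 169 ± 5.45 TPM in bypass G1, 71.4 ± 3.81 TPM in wild-type S and 213 ± 24.0 TPM in wild-type G1. In wild-type G1 the levels of ATG33 and ATG19 lay within their spread of each other. ATG14, a subunit of the phosphatidylinositol 3-kinase complex, was the lowest in every group, at 7.59 ± 0.62 TPM in bypass G1, 4.20 ± 1.04 TPM in wild-type S and 10.8 ± 2.98 TPM in wild-type G1, and in S its spread overlapped that of ATG1 at 4.53 ± 0.13 TPM. Most members were expressed below the median gene: 23 of 34 in bypass G1, 30 in wild-type S and 26 in wild-type G1.

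The first comparison asks how replicating S cells differed in their ATG genes from arrested G1 cells of wild type. Nearly all were lower in S. The median ATG log2 fold change of wild-type S over wild-type G1 was −1.01, that is 2.01-fold lower, and the median of all 5662 genes was −0.02. At an edgeR adjusted p below 0.1, 33 of 34 members fell and 0 rose, where 43.3% of all genes fell and 40.4% rose. No member had a positive fold change, so 0 also rose at an unadjusted p under 0.05. DESeq2 called 0 higher and 32 lower, where it called 4751 of 6221 genes, 2377 of them higher. The S and G1 replicates did not overlap in 32 members, as in 38.1% of all genes in this direction, and ATG13 and ATG18 were the exceptions. A fall of more than 1 on the log2 scale was seen in 17 members, and in 12.5% of all genes. In these bulk samples a smaller share of cells with a transcript and less of it per cell cannot be told apart. The pheromone, S-phase, meiosis and mating type genes given above also differ between these groups, and their part in the ATG differences was not tested. The groups differ in strain and time too: G1 cells stayed arrested for 3 h, and S cells were released for 30 min. Galactose (2%) is named in the labels of the G1 cells only, although the galactose genes were high in both groups. The part of these differences was not tested either.

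**Figure D1:**
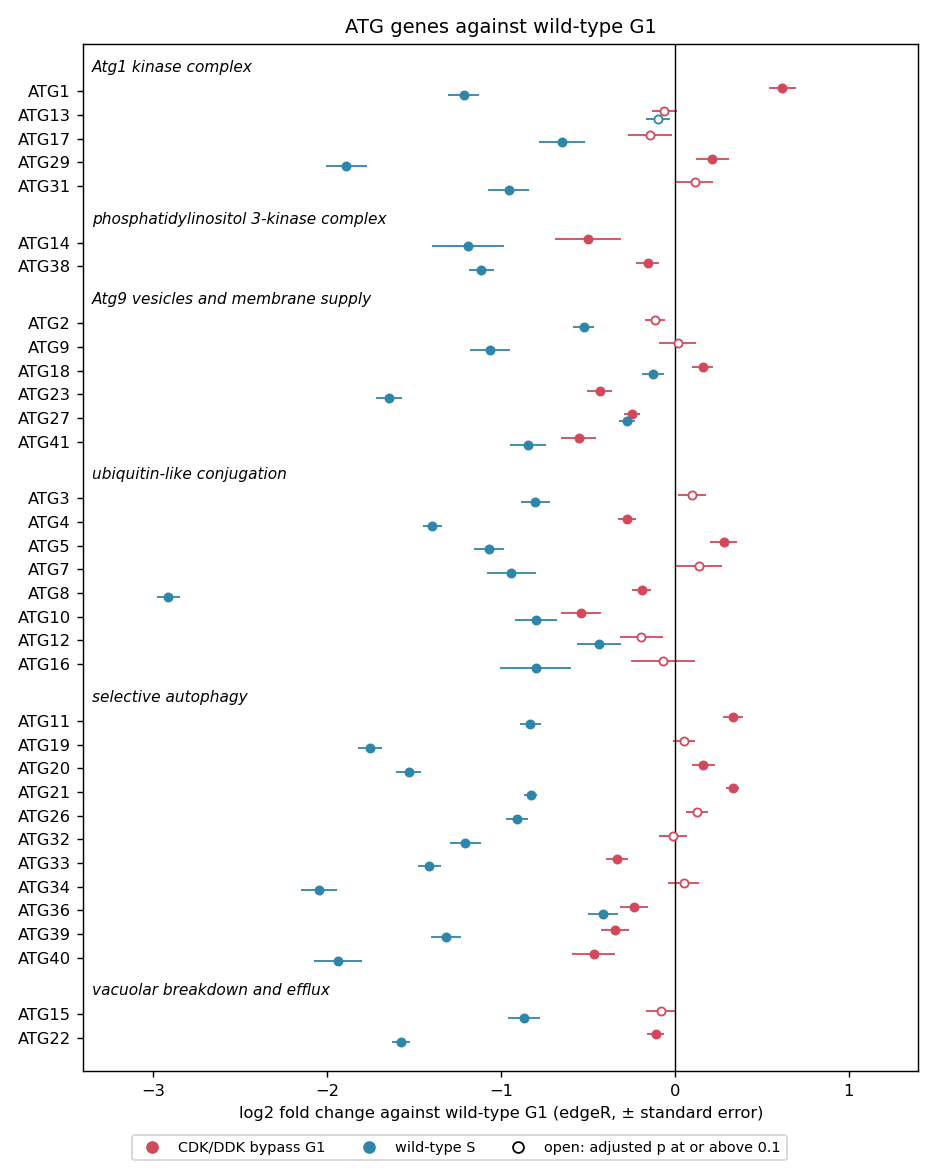
Log2 fold change of each of the 34 ATG genes against wild-type G1 (horizontal axis, edgeR estimate ± standard error), with genes grouped by role down the page; red points are CDK/DDK bypass G1, blue points are wild-type S, and open points have an adjusted p at or above 0.1. The blue points lie between −2.91 (ATG8) and −0.10 (ATG13), and the red points lie on both sides of 0, between −0.55 (ATG41) and 0.62 (ATG1).

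In the conjugation group all 8 members fell in S. ATG8 led them, with 13.4, 13.6, 16.3 and 14.6 CPM in the 4 wild-type S samples, against 111, 99.9, 116 and 110 CPM in wild-type G1. The groups lay far apart, and the fall was 7.52-fold (log2 −2.91 ± 0.07 SE, edgeR adjusted p = 2.43e-13). ATG4, the protease that trims Atg8 and takes it off membranes, fell by 1.39 on the log2 scale. ATG5, which is joined to Atg12, had 34.5, 28.6, 30.5 and 39.7 CPM in wild-type S and 68.9, 71.6, 71.0 and 69.3 CPM in wild-type G1, with no overlap (log2 −1.07 ± 0.09, edgeR adjusted p = 7.48e-08). ATG10, the enzyme that passes Atg12 on to Atg5, had 5.37, 5.85, 5.33 and 6.10 CPM in wild-type S, against 9.26, 8.55, 10.4 and 11.3 CPM in wild-type G1 (log2 −0.80 ± 0.12, edgeR adjusted p = 3.52e-05). The smallest fall of the group was that of ATG12, at −0.44, and ATG7, ATG3 and ATG16 lay between −0.94 and −0.80.

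Of the Atg1 kinase complex 4 of 5 members fell. ATG29, a subunit of the scaffold with Atg17 and Atg31, had 5.48, 6.23, 5.54 and 5.81 CPM in wild-type S and 22.2, 18.1, 23.5 and 21.6 CPM in wild-type G1, a 3.70-fold fall (log2 −1.89 ± 0.12, edgeR adjusted p = 5.80e-09). ATG1, the kinase itself, had 13.6, 13.6, 12.7 and 13.0 CPM in wild-type S, against 26.8, 28.1, 33.2 and 34.4 CPM in wild-type G1 (2.32-fold lower, log2 −1.22 ± 0.09, edgeR adjusted p = 2.73e-08). The scaffold genes ATG31 and ATG17 fell by 0.96 and fell by 0.65. ATG13, the subunit through which TORC1 restrains the kinase, was the member that did not pass. It had 53.1, 54.9, 58.5 and 60.4 CPM in wild-type S and 55.3, 55.5, 66.9 and 65.4 CPM in wild-type G1, with overlapping groups (log2 −0.10 ± 0.07, edgeR adjusted p = 0.22). Without replicate 1 or without replicate 2 of wild-type G1 it passed, at −0.14 with an edgeR adjusted p of 0.088 and 0.095.

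The 11 genes listed here under selective autophagy all fell. ATG34, a receptor for the vacuolar mannosidase Ams1, had 17.0, 17.5, 14.8 and 16.4 CPM in wild-type S and 58.5, 59.7, 75.1 and 78.3 CPM in wild-type G1, a 4.14-fold fall (log2 −2.05 ± 0.10, edgeR adjusted p = 6.33e-10). ATG40, a receptor for pieces of the endoplasmic reticulum, had 17.8, 16.3, 18.8 and 20.1 CPM in wild-type S and 54.8, 60.6, 80.7 and 84.8 CPM in wild-type G1, a 3.83-fold fall (log2 −1.94 ± 0.14, edgeR adjusted p = 2.13e-08). In both genes replicates 3 and 4 of wild-type G1 were above replicates 1 and 2. ATG11, the scaffold that brings cargo receptors to Atg1, had 49.3, 47.9, 56.2 and 53.1 CPM in wild-type S and 86.5, 88.4, 95.2 and 98.4 CPM in wild-type G1 (log2 −0.83 ± 0.06, edgeR adjusted p = 3.04e-08). ATG21, a phosphoinositide-binding protein that helps to place Atg8, had 41.6, 40.5, 41.4 and 40.4 CPM in wild-type S and 73.3, 69.8, 74.0 and 73.9 CPM in wild-type G1 (log2 −0.83 ± 0.04, edgeR adjusted p = 2.36e-10). The 4 replicates of ATG21 in S lay closer together than those of ATG11. Of the other receptors, ATG19 fell by 1.75, the nuclear envelope receptor ATG39 by 1.32, the mitochondrial receptor ATG32 by 1.20 and the peroxisome receptor ATG36 by 0.41 on the log2 scale. ATG33 fell by 1.41, the sorting nexin ATG20 by 1.53 and ATG26, a sterol glucosyltransferase, by 0.91.

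All 6 genes of Atg9 vesicles and membrane supply fell, over a wide range. ATG23, which works with Atg27 in Atg9 transport, fell by 1.64, and ATG27 itself by 0.28. ATG9, the lipid scramblase in the vesicles, had 19.2, 19.6, 22.1 and 18.5 CPM in wild-type S, against 35.3, 35.2, 46.0 and 49.3 CPM in wild-type G1 (log2 −1.06 ± 0.11, edgeR adjusted p = 1.49e-06). ATG41, an Atg9-binding protein, had 21.1, 24.0, 23.1 and 21.0 CPM in wild-type S and 39.5, 35.6, 39.9 and 45.1 CPM in wild-type G1 (log2 −0.84 ± 0.10, edgeR adjusted p = 4.76e-06). ATG2 fell by 0.52. Its phosphoinositide-binding partner ATG18 was at −0.12 ± 0.06 (edgeR adjusted p = 0.082), with overlapping replicates, and DESeq2 did not call it. Its call was lost without replicate 3 or 4 of wild-type G1 (both −0.09) or replicate 1, 2 or 3 of wild-type S (each −0.11). Both members of the phosphatidylinositol 3-kinase complex fell. ATG14 had 6.16, 4.57, 3.24 and 4.84 CPM in wild-type S and 9.36, 7.85, 11.2 and 14.6 CPM in wild-type G1 (log2 −1.19 ± 0.21, edgeR adjusted p = 0.00014), and ATG38, which links the complex together, fell by 1.11. In the vacuole, ATG22, an amino acid exporter, fell by 1.57 and ATG15, the lipase that opens autophagic bodies, by 0.87.

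**Figure D2:**
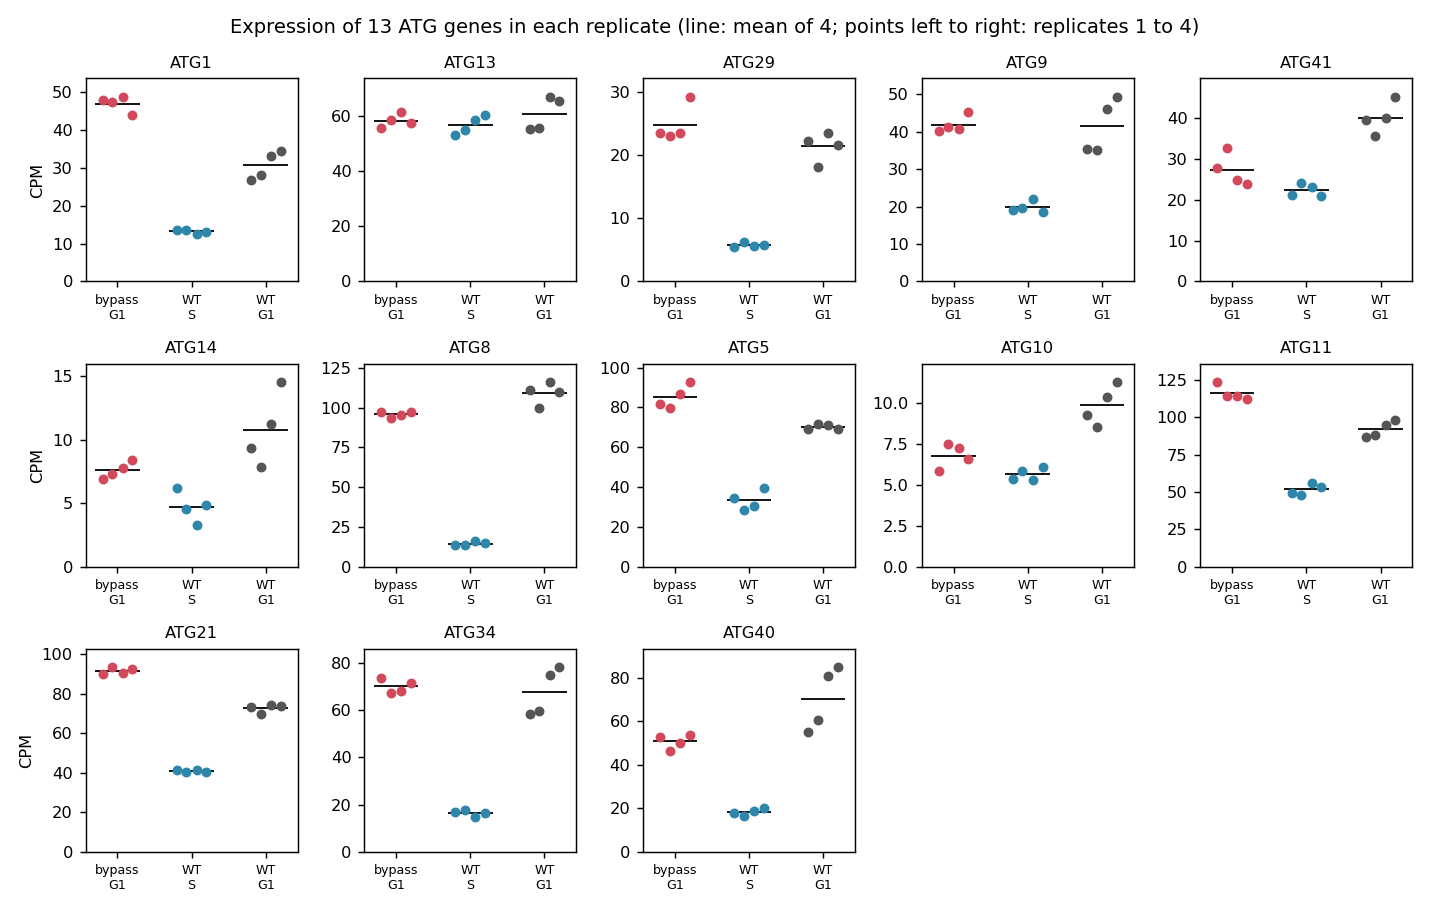
CPM (vertical axis, from 0) of 13 ATG genes in each replicate of CDK/DDK bypass G1, wild-type S and then wild-type G1, where replicates 1 to 4 run from left to right and a line marks the mean of 4. ATG8 lies at 93.5 to 97.2 CPM in bypass G1, 13.4 to 16.3 CPM in wild-type S and 99.9 to 116 CPM in wild-type G1, whereas the 3 groups of ATG13 overlap.

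The second comparison asks how bypass G1 cells differed in the same genes from wild-type cells in the same arrest. The ATG genes moved in both directions and by little. In bypass G1 over wild-type G1, 7 members rose and 13 fell, where 26% of all genes rose and 28.5% fell, and 14 members did not pass. The groups did not overlap upwards in 5 of all 34 members and downwards in 9 of the 34. Of all genes tested, 22.1% did not overlap upwards and 21.9% downwards. The median ATG log2 fold change was −0.07, beside −0.02 for all genes, and no member moved by more than 1. Without replicate 2 of wild-type G1, 4 members rose in place of 7, where 1403 of 5684 genes rose. With the counts summed within replicates 1 and 2 and within replicates 3 and 4 of each group, 4 members rose and 7 fell, where 12.8% of all genes rose and 12.8% fell. The calls lost in that fit were those of ATG18, ATG20 and ATG29 among the rises and of ATG8, ATG14, ATG22, ATG36, ATG38 and ATG40 among the falls, at edgeR adjusted p from 0.12 to 0.31. Spike-in RNA made up 1.93% of the counts in bypass G1, 2.06% in the S cells and 2.28% in wild-type G1, on average. With spike-in scaling all genes had a median of 0.20 on the log2 scale (0.16 in bypass G1 over wild-type S), and then 13 ATG genes rose and 1 fell, where 44.8% of all genes rose and 4.45% fell, so the directions given here are relative to the bulk of the transcriptome. Of all called genes 91.0% were then higher, and 47.7% were without it.

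ATG1 had the largest rise. It had 47.8, 47.3, 48.7 and 43.9 CPM in bypass G1, against 26.8, 28.1, 33.2 and 34.4 CPM in wild-type G1, with no overlap (1.53-fold, log2 0.62 ± 0.08, edgeR adjusted p = 4.64e-05). Of its complex ATG29 also rose, with 23.4, 22.9, 23.5 and 29.2 CPM in bypass G1 and 22.2, 18.1, 23.5 and 21.6 CPM in wild-type G1. Its groups overlapped and its call (log2 0.22 ± 0.10, edgeR adjusted p = 0.085) was lost without replicate 4 of bypass G1 (log2 0.13) or replicate 2 of wild-type G1 (log2 0.14), and without replicate 4 of wild-type G1. ATG13 had 55.7, 58.4, 61.5 and 57.6 CPM in bypass G1 and 55.3, 55.5, 66.9 and 65.4 CPM in wild-type G1, and was not called (log2 −0.06 ± 0.07, edgeR adjusted p = 0.51). In the selective group ATG11, ATG21 and ATG20 rose. ATG11 had 124, 114, 114 and 113 CPM in bypass G1, against 86.5, 88.4, 95.2 and 98.4 CPM in wild-type G1 (log2 0.33 ± 0.06, edgeR adjusted p = 0.00051). ATG21 had 90.0, 93.3, 90.4 and 92.6 CPM in bypass G1, against 73.3, 69.8, 74.0 and 73.9 CPM in wild-type G1 (log2 0.33 ± 0.04, edgeR adjusted p = 1.39e-05). In both genes all bypass samples were above all wild-type G1 samples. ATG5 had 81.9, 79.6, 86.5 and 92.7 CPM in bypass G1 and 68.9, 71.6, 71.0 and 69.3 CPM in wild-type G1, also without overlap (log2 0.28 ± 0.08, edgeR adjusted p = 0.012). ATG18 and ATG20 each rose by 0.16. The call of ATG18 was lost without replicate 3 of bypass G1 (0.14) or replicate 1 (0.13) or 2 (0.12) of wild-type G1. That of ATG20 was lost without replicate 1 (0.16) or 4 (0.13) of bypass G1 or replicate 1 or 2 of wild-type G1 (both 0.13).

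Among the falls, ATG41 had 27.7, 32.7, 24.9 and 23.9 CPM in bypass G1, against 39.5, 35.6, 39.9 and 45.1 CPM in wild-type G1 (1.47-fold lower, log2 −0.55 ± 0.10, edgeR adjusted p = 0.00063). ATG10 had 5.83, 7.50, 7.29 and 6.58 CPM in bypass G1, against 9.26, 8.55, 10.4 and 11.3 CPM in wild-type G1 (log2 −0.54 ± 0.11, edgeR adjusted p = 0.0021). Neither gene had overlapping groups. ATG14 had 6.88, 7.28, 7.80 and 8.39 CPM in bypass G1 and 9.36, 7.85, 11.2 and 14.6 CPM in wild-type G1, with overlap (log2 −0.50 ± 0.19, edgeR adjusted p = 0.047). Its call was lost without replicate 1 of bypass G1 (log2 −0.45) or replicate 4 of wild-type G1 (log2 −0.32). ATG40 had 52.9, 46.3, 50.1 and 53.6 CPM in bypass G1 and 54.8, 60.6, 80.7 and 84.8 CPM in wild-type G1, where the lowest wild-type sample was just above the highest bypass sample (log2 −0.47 ± 0.12, edgeR adjusted p = 0.0077). ATG8 had 97.2, 93.5, 95.1 and 97.2 CPM in bypass G1 and 111, 99.9, 116 and 110 CPM in wild-type G1, a 1.14-fold fall (log2 −0.19 ± 0.06, edgeR adjusted p = 0.013), which with spike-in scaling was 0.02 and not called. Further falls were those of ATG23 (−0.43), ATG39 (−0.34), ATG33 (−0.33), ATG4 (−0.28), ATG27 (−0.25), ATG36 (−0.24), ATG38 (−0.16) and ATG22 (−0.11). The calls of ATG38 and ATG22 were each lost without any 1 of 5 libraries, with log2 fold changes from −0.16 to −0.11 for ATG38 and from −0.12 to −0.08 for ATG22. These were replicates 1, 3 and 4 of bypass G1 and 3 and 4 of wild-type G1 for ATG38, and replicates 2, 3 and 4 of bypass G1 and 1 and 4 of wild-type G1 for ATG22. ATG9 had 40.2, 41.4, 40.6 and 45.3 CPM in bypass G1 and 35.3, 35.2, 46.0 and 49.3 CPM in wild-type G1, and was not called (log2 0.02 ± 0.11, edgeR adjusted p = 0.91). ATG34 had 73.8, 67.4, 68.3 and 71.8 CPM in bypass G1 and 58.5, 59.7, 75.1 and 78.3 CPM in wild-type G1 (log2 0.05 ± 0.09, edgeR adjusted p = 0.66). In these 2 genes the bypass samples lay between replicates 1 and 2 and replicates 3 and 4 of wild-type G1. By role, 2 genes of the Atg1 complex rose and 0 fell, 0 of the phosphatidylinositol 3-kinase complex rose and 2 fell, and the other groups had members on both sides or, in the vacuolar pair, 1 fall.

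**Figure D3:**
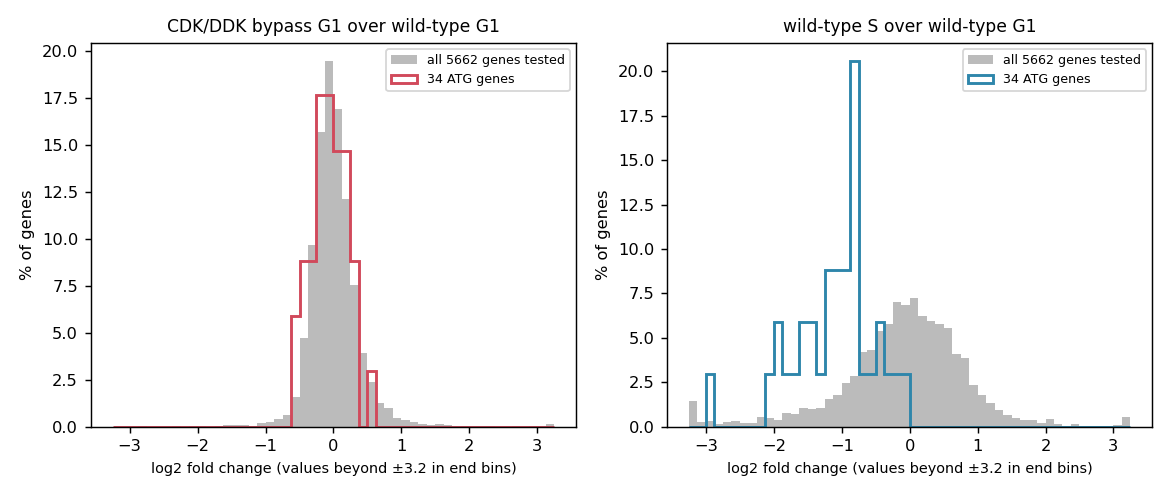
Share of genes (vertical axis, %) by log2 fold change against wild-type G1 (horizontal axis), for CDK/DDK bypass G1 on the left and wild-type S on the right, with all 5662 genes tested in grey and the 34 ATG genes as a coloured outline. The ATG outline is centred near the other genes in the bypass (medians −0.07 and −0.02) and shifted to the left in S (medians −1.01 and −0.02).

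The wild-type G1 replicates fell into pairs in the ATG genes. In 26 of the 34, both of replicates 3 and 4 were above both of replicates 1 and 2, and in 0 they were below, while 37.2% of all genes showed the same order and 36.3% the reverse. The median ATG difference of replicates 3 and 4 over 1 and 2 was 0.23 on the log2 scale, and that of all genes 0.01. In bypass G1 the order was above in 7 members and below in 8, where it was above in 22.5% and below in 22.5% of all genes. In wild-type S it was above in 14 members and below in 4, where it was above in 27.6% and below in 25.9% of all genes. Over all genes the chi-square per gene between samples of a group was 1.48 to 2.43 within these pairs and 3.02 to 46.6 across them, and the labels name nothing that separates them. The pairs of wild-type G1 were shared with both other groups. Deviations from the group means correlated by 0.065 to 0.21 between bypass G1 and wild-type G1 samples within the same pair of numbers, and by −0.23 to −0.069 across the pairs. Such deviations cancel out over a group, so positive values within the pairs bring negative ones across and these are no separate result. Between S and G1 samples of wild type the correlations were 0.065 to 0.19 within a pair and −0.18 to −0.047 across, and between bypass G1 and wild-type S they had no fixed sign. The comparison of bypass G1 with wild-type G1 was therefore repeated within each pair. With replicates 1 and 2 alone, 15 ATG genes rose and 9 fell, where 32.9% and 33.2% of all genes did. With replicates 3 and 4 alone, 6 rose and 20 fell, where 31.7% and 32.3% of all genes did. The 6 genes ATG1, ATG5, ATG11, ATG20, ATG21 and ATG29 rose in both pairs, and 9 genes (ATG4, ATG8, ATG10, ATG23, ATG27, ATG33, ATG39, ATG40 and ATG41) fell in both. The shares of all genes called the same way in both pairs, or in opposite ways, were not computed. ATG7, ATG9, ATG32 and ATG34 rose in replicates 1 and 2 and fell in replicates 3 and 4. The edgeR adjusted p of their rises were 2.92e-06, 0.016, 0.0034 and 0.00039, and those of their falls 0.067, 0.095, 0.0029 and 0.054. Each of these fits holds the samples of 1 pair only, so its p-values measure the spread within that pair. For ATG1 the log2 fold change was 0.80 in replicates 1 and 2 and 0.45 in replicates 3 and 4, and for ATG7, which activates Atg8 and Atg12, it was 0.50 and −0.16. The median ATG fold change changed sign, with 0.08 in replicates 1 and 2 and −0.19 in replicates 3 and 4. Of wild-type S over wild-type G1 it was −0.84 and −1.14 in the same pairs.

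**Figure D4:**
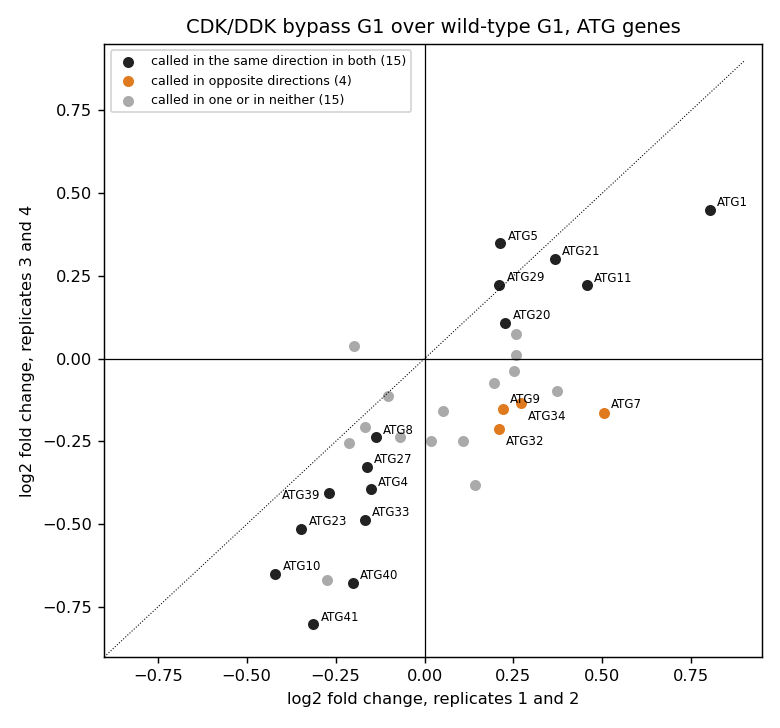
Log2 fold change of bypass G1 over wild-type G1 for the 34 ATG genes, from replicates 1 and 2 (horizontal axis) and from replicates 3 and 4 (vertical axis), with black for genes called in the same direction in both, orange for genes called in opposite directions and grey for the rest. There are 15 black points, 4 orange ones and 15 grey ones, and most points lie below the dotted line of equal values. The same shares over all genes were not computed.

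The third comparison sets the 2 kinds of replicating cells side by side. It shares its samples with the other 2 comparisons. Of bypass G1 over wild-type S, 32 ATG genes were higher and 0 lower, where 43.6% of all genes were higher and 41.5% lower. No member had a negative fold change, so 0 were lower at an unadjusted p under 0.05. DESeq2 called 29 higher and 0 lower, where it called 4850 of 6221 genes, 2466 of them higher. The groups did not overlap in 28, as in 41.6% of all genes in this direction, and the median was 1.07, against 0.02 for all genes. In 19 members the difference was above 1 on the log2 scale, and in 14.2% of all genes. ATG8, at 93.5 to 97.2 CPM in bypass G1 and 13.4 to 16.3 CPM in wild-type S, was 6.59-fold higher (log2 2.72 ± 0.07, edgeR adjusted p = 4.76e-13). ATG29, at 22.9 to 29.2 CPM in bypass G1 and 5.48 to 6.23 CPM in wild-type S, was 4.30-fold higher (log2 2.10 ± 0.12, edgeR adjusted p = 1.55e-09). These are the coat protein and a scaffold subunit of the initiating kinase. ATG34, at 67.4 to 73.8 CPM in bypass G1 and 14.8 to 17.5 CPM in wild-type S, was 4.29-fold higher (log2 2.10 ± 0.10, edgeR adjusted p = 4.59e-10). ATG1, at 43.9 to 48.7 CPM in bypass G1 and 12.7 to 13.6 CPM in wild-type S, was 3.56-fold higher (log2 1.83 ± 0.09, edgeR adjusted p = 2.98e-10). ATG13 (0.04 ± 0.07) and ATG27 (0.03 ± 0.05) did not pass, with edgeR adjusted p of 0.64 and 0.58, and ATG10, ATG12, ATG36 and ATG41 passed with overlapping groups. The calls of ATG10, ATG12 and ATG36 were each lost without 1 of 4 or 5 libraries. They were lost without bypass G1 replicates 2 or 3 or S replicates 1 or 3 for ATG10 (0.21 to 0.23), without bypass G1 replicates 1, 3 or 4 or S replicates 1 or 2 for ATG12 (0.17 to 0.26), and without bypass G1 replicates 2 or 3 or S replicates 3 or 4 for ATG36 (0.14 to 0.18).

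The genes around the ATG machinery were taken from 5 further lists. In wild-type S over wild-type G1, 11 of 12 vacuolar hydrolases and Cvt cargo genes fell and 0 rose, where 43.3% of all genes fell and 40.4% rose. The mannosidase AMS1, the cargo that Atg34 and Atg19 carry, was at 33.8 ± 2.10 CPM in wild-type S and 355 ± 43.3 CPM in wild-type G1 (log2 −3.39 ± 0.08). The proteinases PRB1 and PEP4, which degrade autophagic bodies, were at −2.20 and −1.37, and the Cvt cargo APE1 at −1.47, while LAP3 was not called (−0.14). Of 14 autophagy proteins under other names, 11 fell, led by the nucleus-vacuole junction protein NVJ1 (−1.20), and TRS85, a TRAPP subunit, rose (0.21). Of 14 vacuolar fusion genes 10 fell, among them the SNAREs NYV1 (−1.51) and VTI1 (−1.12), and the SNARE VAM7 (0.28) and the tether subunit PEP5 (0.18) rose. Of 22 genes of TORC1 and nutrient signalling 14 fell and 3 rose, the highest being the AMPK subunit SNF4 (0.73). The 15 regulators of ATG transcription were split, with 5 rises and 7 falls. UME6 rose (log2 1.07 ± 0.05), at 88.9 ± 3.49 CPM in S cells and 42.3 ± 1.76 CPM in G1 cells, and the histone demethylase RPH1, also a known ATG repressor, fell by 1.59. Among activators MSN2 rose by 1.04, and GAT1 and the kinase RIM15 were at −1.05 and −0.83.

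**Figure D5:**
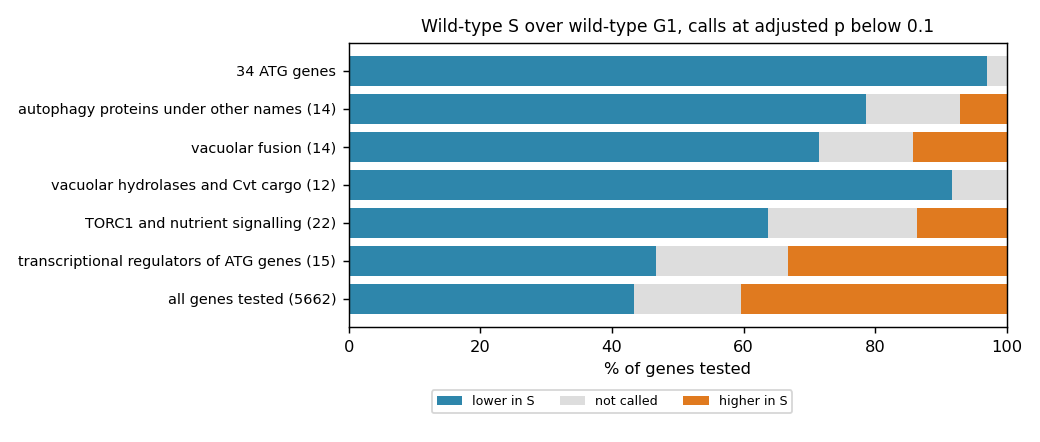
Share of genes (horizontal axis, %) lower, not called and higher in S cells than in G1 cells of wild type at an adjusted p below 0.1, for the 34 ATG genes, the 5 related lists and all 5662 genes tested. The lower share covers 33 of 34 ATG genes and 11 of 12 vacuolar hydrolases and Cvt cargo genes, against 43.3% of all genes and 7 of 15 transcriptional regulators.

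In bypass G1 over wild-type G1 each list had members called on both sides, where 26% of all genes rose and 28.5% fell. Of the 12 vacuolar genes 5 rose and 3 fell, with APE1 at 0.41 and LAP3, a cysteine aminopeptidase, at −0.54. Of the other autophagy proteins 4 rose and 2 fell, of the fusion genes 3 and 2, and of the TORC1 genes 4 and 8. Of the 15 regulators 7 rose and 4 fell, beside the same shares of all genes, and no list was tested against them. RIM15, the kinase that acts below TORC1 in stress, was at 211 ± 11.4 CPM in bypass G1 and 129 ± 5.17 CPM in wild-type G1 (log2 0.71 ± 0.05), GLN3 rose by 0.36 and GAT1 fell by 0.32, while UME6 was not called (−0.10).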

How the data were processed

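The sample titles gave the groups and the replicate numbers. The files deposited by the authors hold unnormalized gene counts, 1 file a sample, made from paired reads of 42 bases of a strand-specific, poly(A)-selected library with ERCC spike-ins. Per the submitters' processing notes and the study's methods, reads were mapped to sacCer3 with STAR 2.7.10a, sorted with SAMtools 1.12 and counted with HTSeq 2.0.1 by strand and without multiply mapped reads, and DESeq2 1.36.0 was used on the counts. The annotation release is not given in the sources used here. Lines that name no gene held 9.28% to 11.5% of the counts in a file and were left out, as were the 92 spike-ins.

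Counts were tested with edgeR 4.0.16 in R 4.3.3: filterByExpr at a minimum count of 10, TMM normalization, glmQLFit and glmQLFTest on all 12 samples in 3 groups, and Benjamini-Hochberg adjustment over 5662 genes with calls below 0.1. The common biological coefficient of variation was 0.0826. The standard error of a fold change was taken as its size over the root of the F statistic, both on the log2 scale. Samples held 8162140 to 10545835 counts on genes, and counting error limits precision most for ATG16, the member with the fewest counts. TPM were computed over genes with a RefSeq length. Promoters were read from assembly R64 with Python 3.11.15, from 250 bases before to 50 after the start codon. The differential test was tested on simulated data.

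Values in every sample are given for ATG1, ATG8, ATG9, ATG13 and, in each comparison, up to 4 members with the largest rise and fall among those called. The ATG genes, the lists and the rules were chosen with earlier results of these data known. Alternatives were DESeq2 1.42.0, RLE, library totals or spike-ins as scaling, no filter or a minimum count of 50, an adjusted p below 0.05, a replicate block, fits of the compared groups alone, leaving out each replicate, using or summing replicates 1 and 2 and replicates 3 and 4, and, added later, that split as a term.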

Additional observations from a re-analysis of the deposited data

Results flagged for a closer look

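In 4 of 102 sets of 4 replicates (34 ATG genes in 3 groups), the highest sample stood apart from the other 3 by Dixon's test at the 95% level, where chance alone gives about 5.1. ATG11 was at 124 CPM in bypass G1 replicate 1, against 113 to 114 CPM in the other 3. ATG29 was at 29.2 CPM in bypass G1 replicate 4, against 22.9 to 23.5 CPM in the others, and the call of its rise over wild-type G1 was lost without this sample. Among the S cells, replicate 4 had 55.8 CPM of ATG18 and the other 3 had 50.4 to 50.8 CPM, and replicate 2 had 98.6 CPM of ATG26 and the other 3 had 89.4 to 90.6 CPM.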

How the results depend on the processing

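The falls of wild-type S against wild-type G1 kept their direction under every alternative run, with 32 to 34 ATG genes lower and 0 higher, also without each replicate (median −1.06 to −0.94). The median was −0.84 with only replicates 1 and 2. The fits of this comparison called 4275 to 4892 of all genes, and 43.8% to 53.6% of the called genes were higher. Of bypass G1 over wild-type S, 29 to 33 were higher and 0 lower (29 to 31 without each replicate, median 1.05 to 1.09). Its median was 1.21 with spike-in scaling, 1.13 with library totals and 1.02 with only replicates 3 and 4. Its fits called 4418 to 4967 of all genes, and 50.3% to 59.8% of the called genes were higher. Bypass G1 over wild-type G1 changed most. With spike-in scaling 13 ATG genes rose and 1 fell (median 0.14), with only replicates 1 and 2 15 rose (median 0.080), with only replicates 3 and 4 20 fell, and with counts summed within the pairs 4 rose and 7 fell, a fit with fewer samples in which ATG18 in S over G1 and ATG10, ATG12 and ATG36 in bypass G1 over wild-type S were also not called. Without each replicate 4 to 9 rose and 10 to 15 fell, with medians from −0.11 to −0.02. These fits called 2704 to 3164 of all genes, and 47.3% to 48.6% of the called genes rose. The cause of these changes was not tested.

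The log2 fold changes of bypass G1 over wild-type G1 that changed sign were mostly of genes not called. With spike-in scaling they were ATG2 0.10, ATG8 0.024, ATG12 0.026, ATG13 0.16, ATG15 0.14, ATG16 0.15, ATG17 0.076, ATG22 0.10, ATG32 0.21 and ATG38 0.059. With only replicates 1 and 2 they were ATG2 0.018, ATG13 0.052, ATG15 0.11, ATG17 0.14 and ATG32 0.21. With only replicates 3 and 4 they were ATG3 −0.036, ATG7 −0.16, ATG9 −0.15, ATG16 0.037, ATG19 −0.074, ATG31 −0.10 and ATG34 −0.13. ATG9 was at −0.0051 with library totals, and ATG32 at 4.2e-05 with DESeq2 and 0.0048 with RLE. Without each replicate ATG9 ranged from −0.054 to 0.11, ATG16 from −0.18 to 0.087, ATG19 from −0.0017 to 0.10, ATG32 from −0.061 to 0.054 and ATG34 from −0.014 to 0.13. Of bypass G1 over wild-type S, ATG13 was at −0.0029 and ATG27 at −0.056 with only replicates 3 and 4, and ATG27 ranged from −0.0092 to 0.058 without each replicate.

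The groups share replicate numbers. Samples of the same number deviated together with a correlation of 0.06 to 0.21 between bypass G1 and wild-type G1, 0.09 to 0.16 between the S and G1 cells of wild type, and −0.01 to 0.02 between bypass G1 and wild-type S, and a sample correlated best with its own number in 2, 2 and 1 of 4 cases. Not every correlation was above 0.1, so single numbers were not taken to pair samples, although the sets of replicates 1 and 2 and of replicates 3 and 4 are shared between wild-type G1 and both other groups. With that set as a term, an alternative added after the data were seen, 8 ATG genes rose and 13 fell in bypass G1 over wild-type G1 (median −0.08, ATG26 gained), 34 fell in S (median −1.01, ATG13 gained), and 32 were higher in bypass G1 than in S (median 1.08). In that fit 3302 of 5662 genes were called in bypass G1 over wild-type G1, 1589 of them higher. In S over G1 of wild type 4819 were called, 2336 of them higher, and in bypass G1 over S 4899, 2509 of them higher. With a replicate block 7 ATG genes rose and 14 fell in bypass G1 over wild-type G1 (median −0.07), 33 fell in wild-type S over wild-type G1 (median −1.01), and 32 were higher in bypass G1 than in wild-type S (median 1.08). The block fit called 3110 of 5662 genes in the first of these comparisons, 1507 of them higher. It called 4760 in the second, 2301 of them higher, and 4834 in the third, 2476 of them higher.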

Other observations

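Of genes that also have an ATG name, the counts list ATG6 as VPS30 and ATG24 as SNX4, and 3 more genes carry ATG names only in the RefSeq annotation. These 3 were looked up after the values of the ATG genes were known. YBR139W (ATG42, a vacuolar carboxypeptidase) had a log2 fold change of −1.29 ± 0.07 (SE, edgeR adjusted p = 1.87e-09) in wild-type S over wild-type G1 and of 0.02 ± 0.07 in bypass G1 over wild-type G1 (adjusted p = 0.80). YIL156W-B (ATG44) was at 0.06 ± 0.09 (adjusted p = 0.56) in S and at −0.34 ± 0.09 (adjusted p = 0.0074) in the bypass. YIL024C (ATG45) was at −0.16 ± 0.07 (adjusted p = 0.051) in S and at −0.58 ± 0.07 (adjusted p = 3.33e-05) in the bypass.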
